A study of Mus musculus with 16 samples.

Results

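The genes described here are the enzymes that make cholesterol, the proteins that set the activity of the transcription factor SREBP2, and proteins that take up or move cholesterol inside the cell. They are 27 genes, chosen by symbol from the 41585 rows of a liver read-count table: 19 synthesis enzymes, 4 control genes (Srebf2, Scap, Insig1 and Insig2) and 4 genes of sterol uptake and transport (Mylip, Stard4, Npc1 and Npc2). All 27 were in the table and all 27 were among the 13470 genes with enough counts to be tested. The libraries came from livers of C57BL/6 mice that had eaten a diet with 60% fat for 16 weeks, so no group on ordinary chow was analysed here. The 4 groups, of 4 libraries each, were Cyp2b-null females, hCYP2B6-Tg females, Cyp2b-null males and hCYP2B6-Tg males. Cyp2b-null mice lack Cyp2b genes, cytochrome P450 oxidases of the liver, and hCYP2B6-Tg mice carry human CYP2B6. The sources used here state neither the promoter that drives the transgene, nor the age of the mice, nor whether the hCYP2B6-Tg mice also lack the mouse Cyp2b genes. The series asked what human CYP2B6 does in obesity caused by diet.

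Cells build cholesterol from acetyl-CoA through mevalonate, isoprenoid diphosphates, squalene and lanosterol. When sterols in the endoplasmic reticulum run low, SCAP carries SREBP2 to the Golgi, where it is cut, and its released part enters the nucleus and turns on the genes of the pathway; when sterols are plentiful, INSIG proteins hold SCAP back. SREBP2 acts together with NF-Y and Sp1 at many of these promoters, and the liver is a main site of this synthesis.

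In hCYP2B6-Tg livers, 9 of the 27 genes differed between the sexes, against 10.3% of all tested genes. With 1 library left out the count was 4 to 11, and that of all tested genes called, 1381, was 981 to 1282. The 8 that were lower in females were Acat2, Stard4, Hsd17b7, Fdps, Nsdhl, Pmvk, Lss and Idi1, at 0.550 to 0.664 times the male level, and Srebf2 was higher in females, at 1.26 times the male level. In Cyp2b-null livers 1 of the 27, Stard4, passed the same test, against 7.52% of all tested genes. No member passed the test of genotype in either sex, against 0% of all tested genes in females and 0.111% in males. None passed the test of whether the genotype effect differed between the sexes, against 0.0445% of all tested genes.

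Libraries held 5584587 to 9672708 counts and 17748 to 19181 genes with a count, and 2 ribosomal RNA rows took 2.76% to 9.31% of them. The 27 members together took 0.390% to 0.636% of a library's counts. Levels are given as CPM, the library's count scaled to a common total with TMM factors, as mean ± SD with n = 4, and lists of 4 values follow the library numbers in the titles. The labels do not say that each library is a separate animal. Each p-value sets a group difference against the spread between these libraries, and part of that spread may be technical. The tests may therefore not extend to other animals. The mouse genes Cyp2b10, Cyp2b19 and Cyp2b23 together had 0 or 1 count in each library labelled Cyp2b-null, 9 to 26 in each hCYP2B6-Tg female and 6 to 50 in each hCYP2B6-Tg male. A human CYP2B6 row was not analysed here, and whether reads of human CYP2B6 were counted in these mouse rows was not tested. All 16 libraries matched their labelled sex. Hepatocyte markers were abundant in every library, with a sum over 8 genes of 23254 to 32688 CPM. An earlier analysis of these data had set 3 libraries apart (Cyp2b-null females 1 and 3 and hCYP2B6-Tg male 4), and counts without them are given beside the results.

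Per kilobase of exon, the level of the members differed widely. Exon length was that of the merged exons of all transcripts of a gene, 10.8 kilobases for Lss, and can exceed any single transcript. The highest mean over the 4 groups was that of Sc5d, the sterol desaturase near the end of the pathway, with 209 CPM per kilobase, followed by Insig1 with 166 and Hmgcs1, which makes HMG-CoA, with 160.5. Ebp, the sterol isomerase, stood at 106.3 and Insig2 at 67.4 CPM per kilobase. At the low end were Lss, which closes the ring of lanosterol, with 8.25, Mylip, a ubiquitin ligase that limits lipoprotein uptake, with 3.77, and Ggps1, which makes geranylgeranyl diphosphate for protein prenylation, with 2.07. Neighbours in this order often overlapped: Insig1 ran from 112 to 254 CPM per kilobase over the 16 libraries and Hmgcs1 from 74.0 to 211. Insig2 and Cyp51 had means of 67.4 and 67.3 CPM per kilobase with almost the same range. The order depends on the merged length. By CPM alone, group means of Lss were 71.7 to 116, above those of Mvk, at 27.6 to 31.8, although Mvk ranked higher per kilobase, at 11.4.

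The members spread by different amounts within a group. The median coefficient of variation was 14.8% over all members and groups; it was 19.1% in Cyp2b-null females, 15.2% in hCYP2B6-Tg females, 13.7% in Cyp2b-null males and 13.8% in hCYP2B6-Tg males. Single values ranged from 3.10% to 43.5%. The synthesis enzymes of a library tended to stand high or low together. Taking each enzyme's log2 CPM minus its mean over the 16 libraries, the average over the 19 enzymes was -0.46, -0.07, -0.18 and 0.15 in Cyp2b-null females and 0.04, -0.29, -0.13 and -0.54 in hCYP2B6-Tg females. In Cyp2b-null males it was -0.07, 0.31, -0.18 and 0.25, and in hCYP2B6-Tg males 0.36, 0.41, 0.01 and 0.37. Male and female libraries overlapped in this average within Cyp2b-null, and within hCYP2B6-Tg the highest female (1, at 0.04) lay above the lowest male (4, at 0.01). In hCYP2B6-Tg female 5 all 19 enzymes were below their means over the 16 libraries, and in Cyp2b-null female 1 the count was 18. In hCYP2B6-Tg male 4, 18 of the 19 enzymes were below the mean of its own group. Each library gives all 19 values, so they share its depth and its liver.

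**Figure D1:**
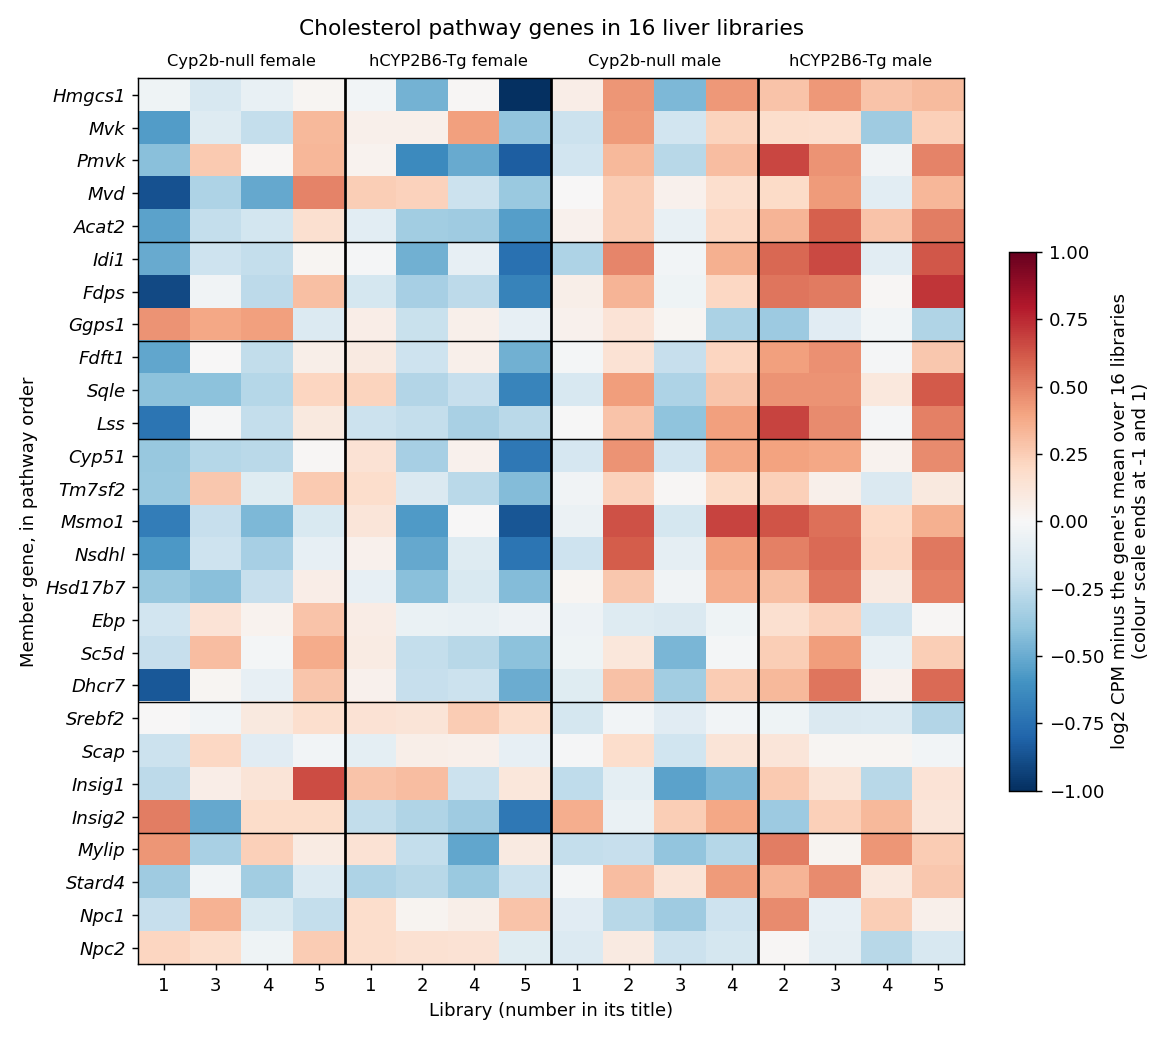
Colour map of the 27 members (rows, in pathway order) in the 16 libraries (columns, by group and library number); colour is log2 CPM minus the gene's mean over the 16 libraries, and the colour scale ends at -1 and 1. At least 16 of the 19 synthesis rows are blue in hCYP2B6-Tg females 2 and 5, Cyp2b-null females 1 and 4 and Cyp2b-null male 3. At least 16 are red in hCYP2B6-Tg males 2, 3 and 5, Cyp2b-null males 2 and 4 and Cyp2b-null female 5. Ggps1, Srebf2 and Npc2 show other patterns.

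Of the members, 22 had a promoter window in RefSeq (GRCm38.p6), 28 windows in all, each from 250 bases before to 50 bases after a start site; Fdft1, Fdps, Npc1, Sqle and Stard4 had none in the table. These 4 short words were searched on both strands: CCAAT, the core of the NF-Y site; GGGCGG, the GC box that Sp1 binds; CACGTG, an E-box; and TCACNCCAC, a form of the sterol regulatory element. CCAAT was in 20 of the 28 windows (71.4%, 20 of the 22 genes) against 37.4% of all 32851 windows. GGGCGG was in 23 windows (82.1%) against 35.7%, and CACGTG in 6 (21.4%) against 7.15%. TCACNCCAC was in 1 window (3.57%) against 1.24%. Windows of one gene can overlap, a match is a run of letters and not a shown binding site, and no match says only that these letters are not in the window. The bases before the start site are printed for genes called in the sex comparison and for Hmgcs1, which held the single sterol element. Pmvk was also called, and its 2 windows are not printed: 1 held a CCAAT word, at -136, and 1 held none of the 4 words. Capitals mark the sterol element, the E-box and the NF-Y word (CCAAT, or ATTGG where it lies on the other strand). The sequences read in the direction of the gene, and GC boxes are left in lower case.
Hmgcs1 (chr13:119690101-119690350, plus strand): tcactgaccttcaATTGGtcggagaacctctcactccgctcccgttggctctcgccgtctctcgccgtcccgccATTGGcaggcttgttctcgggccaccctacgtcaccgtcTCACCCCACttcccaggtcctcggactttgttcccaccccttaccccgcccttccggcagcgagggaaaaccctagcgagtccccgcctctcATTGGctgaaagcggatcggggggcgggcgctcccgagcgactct
Hsd17b7 (chr1:169969206-169969455, minus strand): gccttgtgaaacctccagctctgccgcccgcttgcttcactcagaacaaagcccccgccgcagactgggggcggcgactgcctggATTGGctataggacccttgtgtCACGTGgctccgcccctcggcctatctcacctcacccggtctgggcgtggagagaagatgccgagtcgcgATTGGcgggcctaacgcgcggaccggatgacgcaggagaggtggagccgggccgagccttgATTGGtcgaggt
Nsdhl (chrX:72918271-72918520, plus strand): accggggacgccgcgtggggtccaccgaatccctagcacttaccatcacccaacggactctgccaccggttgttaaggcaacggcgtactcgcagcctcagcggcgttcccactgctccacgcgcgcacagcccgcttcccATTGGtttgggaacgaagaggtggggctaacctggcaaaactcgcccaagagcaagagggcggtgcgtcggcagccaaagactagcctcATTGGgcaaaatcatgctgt
Idi1 (chr13:8885356-8885605, plus strand): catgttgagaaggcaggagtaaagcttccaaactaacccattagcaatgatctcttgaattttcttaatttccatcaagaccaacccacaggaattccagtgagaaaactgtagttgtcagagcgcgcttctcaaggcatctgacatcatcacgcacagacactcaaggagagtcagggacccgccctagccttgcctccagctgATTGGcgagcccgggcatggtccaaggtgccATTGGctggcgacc
Lss (chr10:76531355-76531604, plus strand): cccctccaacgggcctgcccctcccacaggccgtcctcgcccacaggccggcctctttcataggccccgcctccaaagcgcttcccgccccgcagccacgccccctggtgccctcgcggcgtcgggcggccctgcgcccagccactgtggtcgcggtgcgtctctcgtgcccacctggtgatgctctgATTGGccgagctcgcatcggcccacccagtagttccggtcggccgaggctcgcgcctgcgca
Srebf2 (chr15:82147019-82147268, plus strand): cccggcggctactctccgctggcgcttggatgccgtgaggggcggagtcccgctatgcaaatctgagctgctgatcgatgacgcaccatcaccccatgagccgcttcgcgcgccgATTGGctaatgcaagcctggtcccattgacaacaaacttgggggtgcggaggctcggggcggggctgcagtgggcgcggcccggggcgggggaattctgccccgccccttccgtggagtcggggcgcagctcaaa
Acat2 (chr17:12960726-12960975, minus strand): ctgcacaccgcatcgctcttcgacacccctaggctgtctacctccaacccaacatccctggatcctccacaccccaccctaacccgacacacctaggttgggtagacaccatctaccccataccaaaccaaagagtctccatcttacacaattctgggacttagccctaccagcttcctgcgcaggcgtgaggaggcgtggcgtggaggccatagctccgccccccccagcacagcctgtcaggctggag
In Hmgcs1 the sterol element began at -137 from the start site, between CCAAT words that began at -176 and -45. Hsd17b7 held an E-box at -143 and CCAAT words at -165, -73 and -12. Acat2, the member with the smallest adjusted p in the sex comparison, had 1 GC box, at -33, and no match to the other words. Srebf2, which moved opposite to the enzymes, had 1 CCAAT word, at -135.

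**Figure D2:**
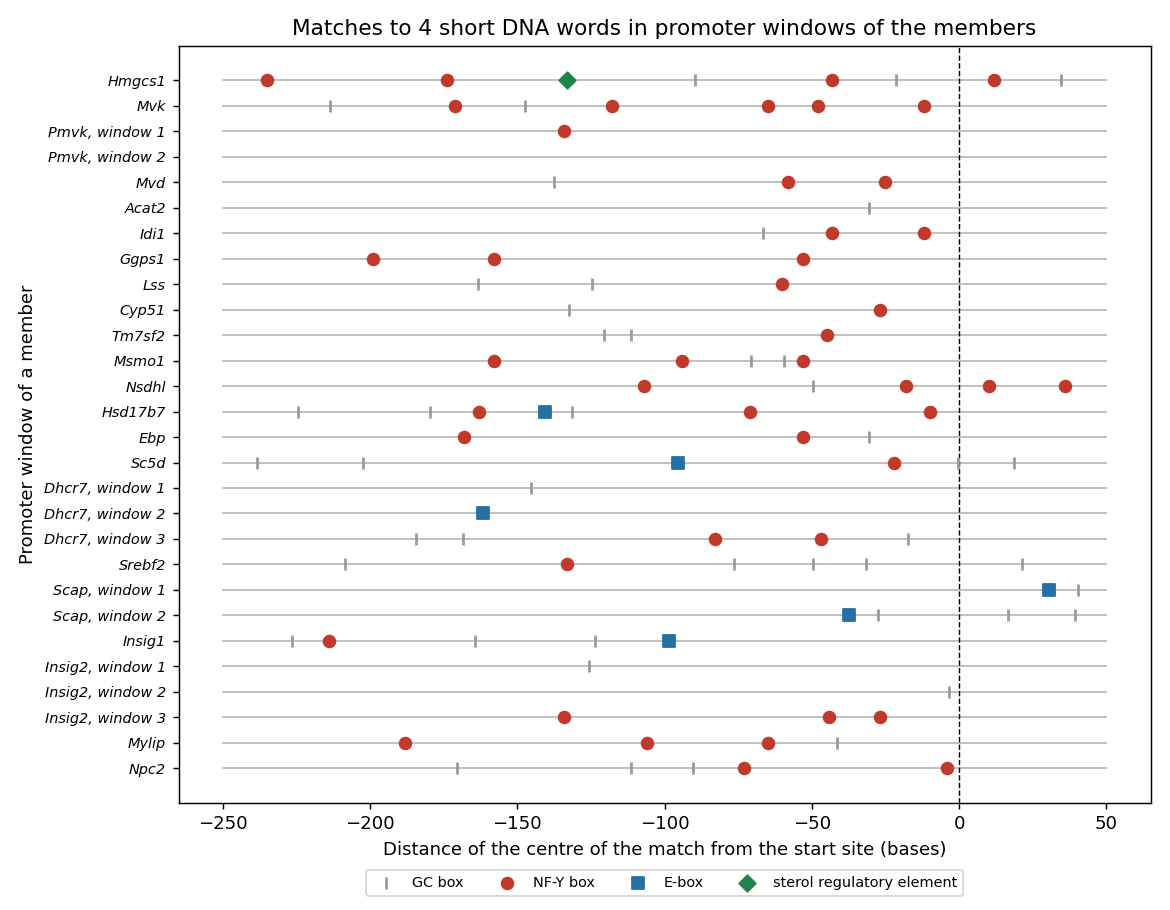
Position of each match to the 4 words (symbols by word) in the 28 promoter windows of 22 members (rows), as distance in bases of the centre of the match from the start site (dashed line at 0). CCAAT matches are present in 20 windows and the sterol regulatory element word in 1, that of Hmgcs1.

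The sex comparison within hCYP2B6-Tg asked whether livers of females and males that carry human CYP2B6 differ in these genes. With edgeR's quasi-likelihood test and Benjamini-Hochberg adjustment over 13470 genes, 9 of 27 members passed at 0.05, against 10.3% of all tested genes; 8 were lower in females (5.56% of all genes) and 1 was higher (4.69%). The estimate was lower in females for 23 of the 27, with a median log2 fold change of -0.50 against 0.02 over all genes. The 4 female and 4 male libraries did not overlap for 9 members, against 15.6% of all genes. In bulk tissue, fewer cells of a type and less RNA per cell cannot be told apart.

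Among the enzymes of the early steps, 2 of 5 were called, both lower in females, and all 5 estimates were lower in females. Acat2, a thiolase that joins acetyl-CoA units, was at 121, 102, 102 and 89.2 CPM in the hCYP2B6-Tg females and 166, 197, 159 and 186 CPM in the males. Every male library was above every female library. Females against males gave a log2 fold change of -0.77 ± 0.12 (adjusted p = 0.000149). In Cyp2b-null, Acat2 was at 115 ± 22.9 CPM in females and 141 ± 14.6 CPM in males. Acat3, a close copy of Acat2, was at 275 to 358 CPM over the 16 libraries, with a log2 fold change of 0.07 ± 0.08 (adjusted p = 0.667) in the same contrast; it was looked up because the authors' counting could split reads between the copies.

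Pmvk, phosphomevalonate kinase, was at 56.5, 35.6, 38.97 and 31.3 CPM in hCYP2B6-Tg females and 87.9, 75.6, 53.9 and 78.1 CPM in males. The highest female library (1) lay above the lowest male library (4). On the log2 scale the female minus male difference was -0.86 ± 0.22 (adjusted p = 0.0212). Hmgcs1 was at 569 ± 179 CPM in females and 898 ± 45.1 CPM in males, without overlap, and did not pass the test. Mevalonate kinase (Mvk) was at 31.1 ± 6.94 and 31.5 ± 5.50 CPM, and mevalonate diphosphate decarboxylase (Mvd) at 39.95 ± 8.53 and 46.8 ± 7.20 CPM, in females and males, with overlap in both.

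Of the 3 isoprenoid enzymes, Idi1 and Fdps were called lower in females and Ggps1 was not called. Fdps, which makes farnesyl diphosphate, the branch point between sterols and prenyl groups, was at 47.2, 42.3, 44.6 and 33.6 CPM in hCYP2B6-Tg females and 77.4, 76.5, 53.7 and 87.5 CPM in males, with no overlap. The log2 fold change of females against males was -0.81 ± 0.21 (adjusted p = 0.0192). Idi1, the isopentenyl diphosphate isomerase, was at 72.99, 52.5, 69.2 and 43.8 CPM in females and 109, 116, 68.1 and 113 CPM in males. Male library 4 fell within the female range and the other 3 lay far above it. Females against males gave a log2 fold change of -0.77 ± 0.21 (adjusted p = 0.035). Ggps1 was at 9.34 ± 0.852 CPM in females and 8.41 ± 0.919 CPM in males.

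In the squalene steps, Lss was called lower in females and the other enzymes, also with lower estimates, did not pass. Lss, lanosterol synthase, was at 74.1, 72.8, 68.9 and 71.2 CPM in hCYP2B6-Tg females, a narrow range, and 137, 119.5, 85.5 and 122 CPM in males. The groups did not overlap, with male 4 the nearest to the females. On the log2 scale the female minus male difference was -0.69 ± 0.19 (adjusted p = 0.0289). Squalene synthase (Fdft1) was at 119 ± 20.8 CPM in females and 158 ± 22.2 CPM in males, and squalene epoxidase (Sqle) at 88.5 ± 22.6 and 137 ± 19.4 CPM.

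The 8 late enzymes turn lanosterol into cholesterol. The test called 2 of them, both lower in females, and all 8 estimates were lower in females. Hsd17b7, which reduces the sterol 3-keto group, was at 121, 96, 115 and 94.6 CPM in hCYP2B6-Tg females and 158, 186, 137 and 181 CPM in males, with every male library above every female one. The log2 fold change of females against males was -0.63 ± 0.12 (adjusted p = 0.0015). Nsdhl, an X-linked sterol dehydrogenase of the same demethylation complex, was at 98.2, 66.8, 87.2 and 57.5 CPM in females and 136, 142, 110.2 and 138 CPM in males, also without overlap. Females against males gave a log2 fold change of -0.76 ± 0.19 (adjusted p = 0.0194). Msmo1, the methyl oxidase of that complex, was at 229.8 ± 71.3 and 377 ± 50.2 CPM without overlap and did not pass. For Cyp51, which removes the first methyl group, the levels were 256 ± 65.6 CPM in females and 365 ± 46.9 CPM in males. Dhcr7, the last reductase, was at 101 ± 15.3 and 152 ± 24.3 CPM, and Sc5d at 869 ± 129.6 and 1162 ± 161 CPM. Neither of these passed the test. The 2 sterol reductase and isomerase genes with the smallest differences were Tm7sf2, at 127 ± 23.4 and 147 ± 16.1 CPM, and the X-linked Ebp, at 239.9 ± 11.8 and 255 ± 31.6 CPM.

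Srebf2, the gene of SREBP2, was the member higher in hCYP2B6-Tg females. It was at 80.1, 79.3, 86.3 and 81.6 CPM in females and 70.3, 65.4, 65.9 and 59.1 CPM in males, so all 4 female libraries lay above all 4 male libraries. On the log2 scale the female minus male difference was 0.33 ± 0.08 (adjusted p = 0.00854). Scap was at 126 ± 7.35 and 129.8 ± 5.87 CPM. Insig1, itself a known SREBP target, was at 551 ± 86.5 CPM in females and 528 ± 79.8 CPM in males, and Insig2 at 173 ± 23.6 and 244 ± 47.5 CPM; neither passed.

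Among the uptake and transport genes only Stard4 passed. Stard4, which carries cholesterol between membranes, was at 158, 162, 151 and 169 CPM in hCYP2B6-Tg females and 247, 272, 211 and 236 CPM in males, with a wide gap between the groups. The log2 fold change of females against males was -0.59 ± 0.10 (adjusted p = 0.000257). Npc1 and Npc2, which together export cholesterol from lysosomes, were at 161 ± 13.2 and 79.3 ± 7.27 CPM in females and 166 ± 28.1 and 68.3 ± 5.78 CPM in males. Mylip was at 11.1 ± 2.26 and 14.9 ± 2.15 CPM.

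The calls of Acat2, Stard4, Hsd17b7 and Srebf2 held in all 8 fits that each left out 1 hCYP2B6-Tg library and in all 11 other settings tried. The Fdps call was lost without female 5, male 3 or male 5, that of Nsdhl also without female 2, and that of Idi1 also without female 2 or male 2. The Pmvk call held only without female 1 or male 4 and the Lss call only without male 4. All 5 of these calls were also lost with no filter on low counts, and that of Idi1 in a separate fit of the 2 groups. The count of members called fell to 4 without hCYP2B6-Tg female 5, male 3 or male 5 and to 5 without female 2. It was 4 with no filter on low counts, 12 without the 3 libraries set apart, 14 with limma voom and 17 with DESeq2. Over all tested genes, the 1381 called became 981 to 1282 with a library left out and 1209 to 1553 over the 11 other settings. Markers of other cells also differed by sex. The Kupffer cell sum (5 genes) was 217 to 302 CPM in hCYP2B6-Tg females and 167 to 202 CPM in males, with 1 of the 5 genes called, and the fat cell sum (8 genes) was 6.39 to 7.86 and 16.3 to 69.3 CPM, with 2 of its 3 tested genes (Cidec and Cfd, which liver can also express) called lower in females. The defining fat cell genes Adipoq and Lep had 12 counts and 1 count over all 16 libraries. The hepatocyte sum was 27987 to 32088 CPM in females and 23254 to 29132 CPM in males, with 3 of 8 genes called higher in females. Of the same list, Apoa1 and Apoh had higher male means, 7551 against 6463 and 2278 against 2247 CPM, and were not called. The part of all these markers in the result was not tested.

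**Figure D3:**
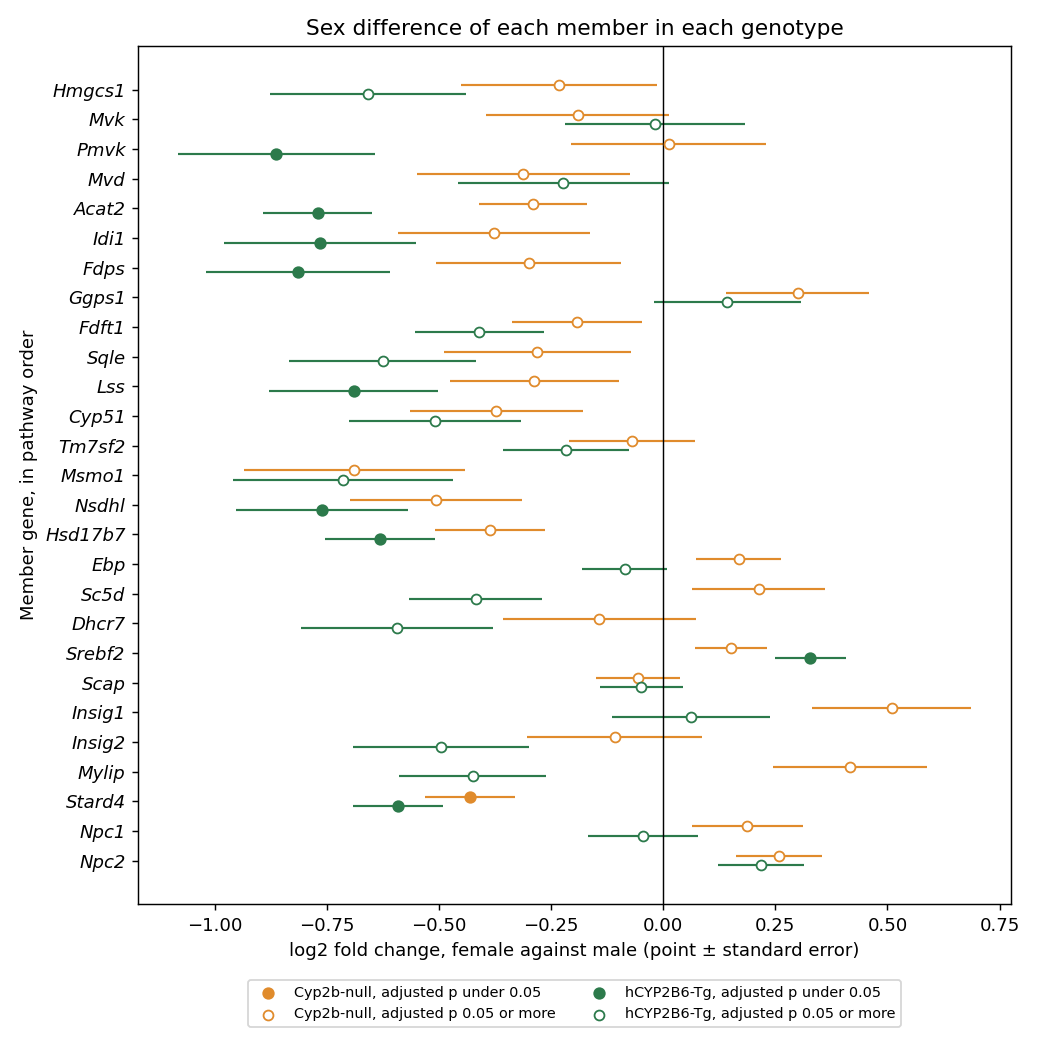
log2 fold change of females against males for each member (rows), with its standard error as bar, in Cyp2b-null (orange) and hCYP2B6-Tg (green) livers; filled points have an adjusted p under 0.05. In hCYP2B6-Tg, 23 of 27 points lie below 0 and 9 are filled, and in Cyp2b-null 18 lie below 0 and 1, Stard4, is filled.

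The same comparison in Cyp2b-null livers called 1 of 27 members, against 7.52% of all tested genes (3.57% higher and 3.95% lower in females). Stard4 was at 153, 193, 154 and 178 CPM in Cyp2b-null females and 193, 243, 214 and 263 CPM in males. The highest female and the lowest male library had the same level to 3 digits, and the others did not overlap. Females against males gave a log2 fold change of -0.43 ± 0.10 (adjusted p = 0.00715). The estimate was lower in females for 18 of the 27 members, with a median log2 fold change of -0.19 against 0.00 over all genes. For 2 members the groups did not overlap, Stard4 and Srebf2, against 12.3% of all genes. Srebf2 was at 72.7, 71.1, 77.5 and 81.3 CPM in females and 64.1, 70.9, 66.8 and 70.9 CPM in males, a narrow gap that did not pass the test.

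The enzymes called in hCYP2B6-Tg all had estimates of smaller size here, and the test of that difference, given below, called none of them. Hsd17b7 was at 109.5 ± 17.5 CPM in females and 143 ± 19.02 CPM in males, and Nsdhl at 78.1 ± 11.1 and 111 ± 29.7 CPM. Fdps was at 47.7 ± 15.5 and 59.1 ± 6.95 CPM, Idi1 at 63.04 ± 9.23 and 81.99 ± 19.99 CPM and Lss at 75.6 ± 17.6 and 92.5 ± 21.7 CPM. Pmvk had means closer together than their SD, at 58.2 ± 12.7 and 57.9 ± 12.6 CPM. Msmo1 had the lowest estimate of the 27, with 215 ± 34.9 CPM in females and 346 ± 105 CPM in males, and its male libraries spread from 245 to 443 CPM.

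Insig1 went the other way in Cyp2b-null livers. Its libraries were at 419, 525, 547 and 786 CPM in females and 419, 469, 345 and 368 CPM in males; 3 of the 4 female libraries lay above every male library, and the difference did not pass. The other levels in females and males were 682 ± 35.5 and 801 ± 211 CPM for Hmgcs1, 27.6 ± 7.18 and 31.8 ± 6.99 for Mvk, and 34.7 ± 15.1 and 43.5 ± 3.43 for Mvd. Along the middle of the pathway they were 11.8 ± 2.06 and 9.49 ± 1.22 CPM for Ggps1, 116 ± 20.3 and 133 ± 17.7 for Fdft1, and 89.2 ± 20.01 and 109 ± 25.7 for Sqle. None of these 6 passed. Of the late enzymes, Cyp51 was at 248 ± 30.1 and 321 ± 76.1 CPM, Tm7sf2 at 144 ± 30.2 and 151 ± 13.8, and Dhcr7 at 109 ± 32.1 and 121 ± 24.96, all with a lower female mean. Ebp was at 258 ± 34.99 and 229.7 ± 8.11 CPM and Sc5d at 1088 ± 208 and 939 ± 149 CPM, both with a higher female mean. Of the remaining control and transport genes, Scap was at 125 ± 15.95 and 129.5 ± 14.7 CPM, Npc1 at 141 ± 29.7 and 124 ± 8.81, and Npc2 at 82.8 ± 7.36 and 69.2 ± 6.85 CPM.

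The Stard4 call held in all 8 left-out fits and all 11 other settings. The count of members called was 4 without Cyp2b-null female 5 and 3 with DESeq2. It was 2 without Cyp2b-null female 1, without male 3 or without the 3 libraries set apart. Over all tested genes, the 1013 called became 749 to 939 with a library left out and 757 to 1157 over the 11 other settings. In Cyp2b-null the Kupffer cell sum was 218 to 358 CPM in females and 152 to 216 in males, with 2 of 5 genes called higher in females. The fat cell sum was 5.44 to 10.9 and 20.1 to 35.2 CPM, with 2 of its 3 tested genes called lower in females. The hepatocyte sum was 27773 to 32688 CPM in females and 23545 to 26476 CPM in males, without overlap. Of its 8 genes, 3 were called higher in females, among them Ahsg, at a mean of 7472 against 5391 CPM. Apoa1 of the same list had a higher male mean, 7129 against 6030 CPM, and was not called. Of the pancreatic acinar list, Cela1 was called lower in females, at a mean of 13.1 against 22.9 CPM (adjusted p = 0.0213). The part of these markers in the result was not tested.

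**Figure D4:**
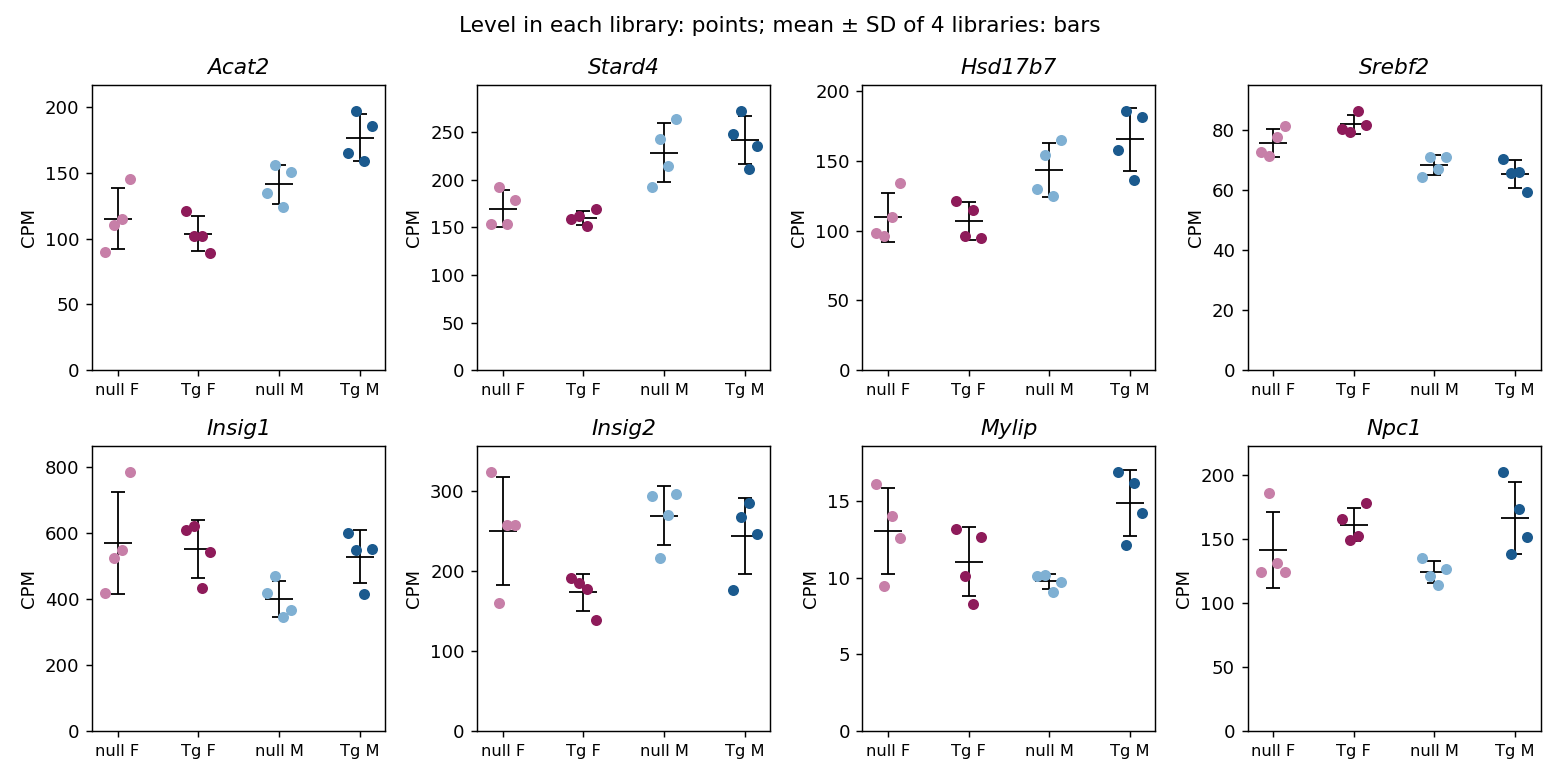
CPM of 8 members in each library (points), with the mean ± SD of the 4 libraries of a group (bars); null is Cyp2b-null, Tg is hCYP2B6-Tg, F is female and M is male. Acat2, Stard4 and Hsd17b7 lie lower and Srebf2 higher in hCYP2B6-Tg females than in hCYP2B6-Tg males without overlap. In males, Mylip and Npc1 lie higher with the human transgene without overlap, but neither passed the test of genotype.

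Whether the sex difference itself depended on genotype was tested as the difference between the genotype effects of the 2 sexes, which is the same quantity. No member passed, against 0.0445% of all tested genes, and 4 of 27 had an unadjusted p under 0.05, against 7.7% of all genes. The more numerous calls in hCYP2B6-Tg were therefore not shown to be a difference from Cyp2b-null. The estimate was higher in males for 23 of 27 members, with a median of 0.25 on the log2 scale against -0.01 over all genes. The members with the smallest p were Mylip, with a difference of 0.84 ± 0.24 (adjusted p = 0.338), Sc5d, with 0.63 ± 0.21 (adjusted p = 0.462), and Acat2, with 0.48 ± 0.17 (adjusted p = 0.482). These are log2 differences ± standard error, and the comparisons share all 16 libraries.

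Genotype in females, the comparison of hCYP2B6-Tg with Cyp2b-null, called 0 of 27 members and 0% of all tested genes. At an unadjusted p under 0.05 there were 4 members, against 7.59% of all genes. No member had groups without overlap, against 3.5% of all genes. The median log2 fold change of the members was -0.08 against 0.00 over all genes, and 8 of 27 estimates were higher in hCYP2B6-Tg. Leaving out libraries moved that count, to 16 without Cyp2b-null female 5, 13 without hCYP2B6-Tg female 5, 5 without hCYP2B6-Tg female 1 or 4, and 4 without Cyp2b-null female 1 or without the 3 libraries set apart.

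The member with the smallest p was Insig2, the INSIG isoform that is less dependent on SREBP. It was at 324, 159.6, 258 and 257 CPM in Cyp2b-null females. The hCYP2B6-Tg females were at 192, 184, 178 and 139 CPM. Of the Cyp2b-null libraries 3 lay above every hCYP2B6-Tg library, and library 3 lay within their range. The genotype contrast gave a log2 fold change of -0.53 ± 0.20 (adjusted p = 0.584). Pmvk was at 41.4, 66.4, 55.6 and 69.6 CPM in Cyp2b-null females and, as given above, below that range in 3 of the 4 hCYP2B6-Tg females. The log2 fold change of hCYP2B6-Tg against Cyp2b-null was -0.53 ± 0.22 (adjusted p = 0.625). Sc5d was at 849, 1233, 982 and 1289 CPM in Cyp2b-null females, and the hCYP2B6-Tg females, at 1053, 848, 823 and 752 CPM, overlapped with them. The genotype contrast gave a log2 fold change of -0.33 ± 0.15 (adjusted p = 0.635). The ratio of Insig1 to Insig2 counts scaled alike was 1.29, 3.29, 2.12 and 3.05 in Cyp2b-null females and 3.18, 3.37, 2.44 and 3.90 in hCYP2B6-Tg females; 2 of the Cyp2b-null values lay within the hCYP2B6-Tg range.

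Genotype in males also called 0 of 27 members, against 0.111% of all tested genes, and 4 members had an unadjusted p under 0.05, against 7.17%. The estimate was higher in hCYP2B6-Tg for 21 of 27 members, with a median log2 fold change of 0.20 against 0.00 over all genes. For 3 members (Mylip, Npc1 and Acat2) all 4 hCYP2B6-Tg males lay above all 4 Cyp2b-null males, against 4.76% of all genes without overlap in either direction. The count of 0 members called was the same with DESeq2 and limma voom in both genotype comparisons.

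Mylip was at 10.1, 10.2, 9.05 and 9.75 CPM in Cyp2b-null males, a narrow range, and 16.9, 12.1, 16.2 and 14.2 CPM in hCYP2B6-Tg males. The log2 fold change of hCYP2B6-Tg against Cyp2b-null was 0.61 ± 0.17 (adjusted p = 0.27). Mylip is a known target of the sterol-sensing LXR receptors. In females the mean levels were 13.1 ± 2.79 CPM (Cyp2b-null) and 11.1 ± 2.26 CPM (hCYP2B6-Tg), the opposite order, with overlap. Npc1 was at 135, 121, 114 and 127 CPM in Cyp2b-null males and 202, 138, 174 and 151 CPM in hCYP2B6-Tg males. The gap between the groups was narrow beside the spread of the hCYP2B6-Tg males. The genotype contrast gave a log2 fold change of 0.42 ± 0.12 (adjusted p = 0.323). Acat2 was at 134, 156, 124 and 151 CPM in Cyp2b-null males, below the hCYP2B6-Tg males given above. The log2 fold change of hCYP2B6-Tg against Cyp2b-null was 0.32 ± 0.12 (adjusted p = 0.536).

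The ratio of Insig1 to Insig2 in males was 1.43, 2.16, 1.28 and 1.24 in Cyp2b-null and 3.40, 2.05, 1.46 and 2.23 in hCYP2B6-Tg, with overlap. Insig2 itself stood at 269 ± 36.97 CPM in males without and 244 ± 47.5 CPM in males with the transgene. Cyp2b-null male 4 stood apart in markers of other cells. Its bile duct markers (5 genes) summed to 97.7 CPM, against 20.5 to 56.7 CPM in the other 15 libraries, and its pancreatic acinar markers (5 genes) to 54.3 CPM, against 9.06 to 24.6 CPM. Of the acinar genes, Cela1 had group means of 11.9 to 22.9 CPM. Ctrb1 had 160 counts over all 16 libraries, with a group mean of 5.7 CPM in Cyp2b-null males and at most 0.026 CPM elsewhere. Cpa1, Pnlip and Clps had 0 counts. The count of members called for genotype in males was 0 both with and without this library, so that count cannot show an effect of it. The part of these markers in the male genotype values was not tested.

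**Figure D5:**
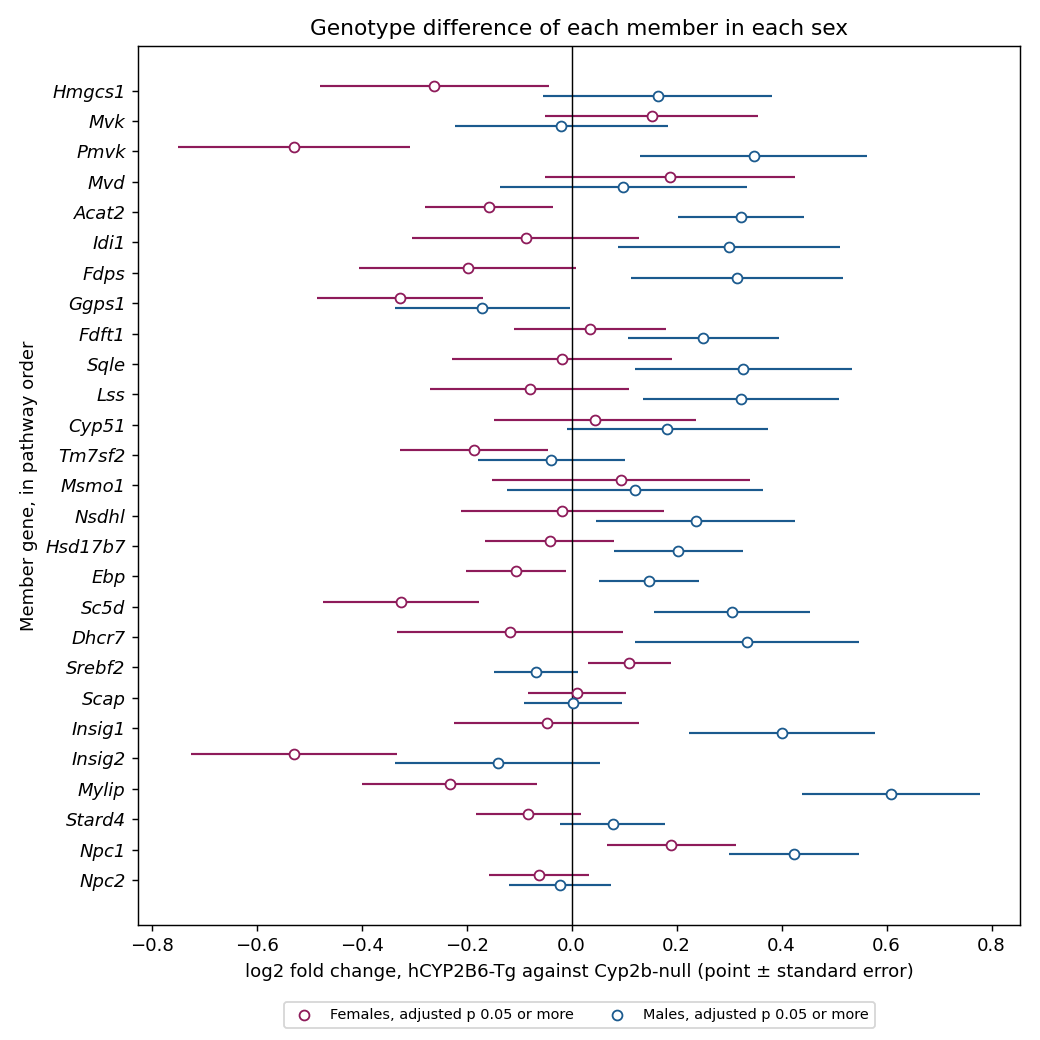
log2 fold change of hCYP2B6-Tg against Cyp2b-null for each member (rows), with its standard error as bar, in females (plum) and males (blue); open points have an adjusted p of 0.05 or more. All points are open; 8 of 27 lie above 0 in females and 21 of 27 in males.

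Beyond the members, 41 further genes of the pathway were in the table, all of them tested: 3 of late synthesis, 9 of the isoprenoid branch, 11 of SREBP processing and sterol sensing and 18 of uptake, transport, storage and export. In hCYP2B6-Tg, 6 of the 41 (14.6%) differed by sex, 3 lower and 3 higher in females, near the 10.3% of all tested genes. Scp2, a peroxisomal sterol carrier protein and thiolase, was at 1483 ± 69.5 CPM in females and 3616 ± 239 CPM in males, a log2 fold change of -1.29 ± 0.08 (adjusted p = 7.48e-11). Cyb5r3, which passes electrons to the sterol desaturases, was at 348 ± 51.8 and 558 ± 73.1 CPM (log2 fold change -0.68 ± 0.12, adjusted p = 0.000791). Tmem97, a sterol-regulated protein that binds NPC1, was at 50.2 ± 6.21 and 69.3 ± 5.21 CPM (-0.46 ± 0.13, adjusted p = 0.0244). Nr1h3, which encodes LXR alpha, was higher in females, at 115.1 ± 5.06 against 95.9 ± 8.11 CPM (0.26 ± 0.08, adjusted p = 0.0273). The Tmem97 call was lost without hCYP2B6-Tg female 2, 4 or 5 or male 3 or 5, and the Nr1h3 call without female 4 or 5 or male 3 or 4 and without the 3 libraries set apart.

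In Cyp2b-null, 2 of these 41 (4.88%) differed by sex, below the 7.52% of all tested genes. Scp2 was again lower in females, at 1585 ± 165 against 3618 ± 256 CPM (log2 fold change -1.19 ± 0.08, adjusted p = 3.80e-10). Lbr, a nuclear envelope sterol reductase that shares its reaction with Tm7sf2, was higher in females, at 15.9 ± 1.41 against 10.8 ± 2.44 CPM (0.53 ± 0.16, adjusted p = 0.0387); its call was lost without any one of Cyp2b-null females 1 and 5 and males 1 and 4. No gene of the 41 passed in a genotype comparison, against 0% of all tested genes in females, 0.111% in males and 0.0445% for their difference. The smallest p values were those of Lipa, the lysosomal cholesteryl ester lipase (-0.27 ± 0.10, adjusted p = 0.551), and Osbp, an oxysterol-binding protein (0.33 ± 0.14, adjusted p = 0.625), in females. In males the smallest p was that of Nr1h2, which encodes LXR beta (-0.33 ± 0.12, adjusted p = 0.536). For the difference between the sexes the smallest were those of Cyb5r3 (0.48 ± 0.17, adjusted p = 0.506) and the lipoprotein receptor gene Lrp1 (-0.37 ± 0.15, adjusted p = 0.577).

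Some members share exon sequence with a neighbour in GENCODE M21, and the sources used here do not state whether counting used strand. Fdft1 shares 774 exon bases (18.3% of its exons) with Ctsb, a gene on the opposite strand at a mean of 701 CPM, so Fdft1 counts may hold Ctsb reads. Fdps, a called member, shares 1124 bases (26.7%) with Gm43738 and Tm7sf2 shares 532 bases (12.1%) with Vps51, both on the same strand. Of the other called members, Idi1 shares 323 bases (9.21%) and Lss 381 bases (3.53%) with transcripts of the opposite strand. Acat2, Hsd17b7, Nsdhl, Pmvk, Srebf2 and Stard4 share none. Positions in RefSeq (GRCm38.p6) are given for 3 members whose sex call held in every setting tried: Acat2 at chr17:12943042-12960725, Hsd17b7 at chr1:169949535-169969242 and Srebf2 at chr15:82147269-82205379.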

How the data were processed

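Liver RNA of 16 libraries, 4 for each genotype and sex, was sequenced from NEB Next Ultra libraries of Trizol extracts, per the labels. The authors deposited raw counts of reads, with 1 row for each gene symbol. GSNAP, Subread, Trimmomatic, FastQC and edgeR, and the build GRCm38.p6, are listed in the submitters' processing notes, without versions or order. Whether counting used strand, and how it treated reads with several matches, is not stated in these sources. Of 41585 rows, 16032 had no count; 3 empty columns were left out and 2 row names were repeated.

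From the counts, filterByExpr kept 13470 genes, libraries were scaled by TMM, and edgeR's quasi-likelihood F test (robust, two-sided) was run on one fit of all 4 groups (16 libraries). P-values were adjusted by Benjamini and Hochberg's method across the 13470 genes, and calls are at 0.05. The current quasi-likelihood method of edgeR (legacy = FALSE) was chosen after counts from an earlier analysis of these data had been seen, because it gave the same counts of genes called; the older method is among the alternatives. Standard errors are the size of the log2 fold change divided by the square root of F. The scripts were tested on simulated data. A count of 0 allows up to 0.310 to 0.537 CPM (3 counts), counting error only. Within groups, the chi-square per degree of freedom of the 24 pairs of libraries was 6.53 to 19.7, so no library looked deposited more than once.

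The members, lists, tests and most alternatives were chosen with earlier results of these data known, so no list test was made; lists are described by counts and medians beside all genes. Fold changes with standard error and adjusted p are given for each member past the threshold or, where none passed, for the 3 with the smallest p; of the other pathway genes, for up to 4 past the threshold, or else for 2. Members outside this rule are given by level. Alternatives were RLE scaling, library totals, no filter, a stricter filter (1 CPM in at least 4 libraries), limma voom, DESeq2, separate fits, a replicate block, leaving out libraries or ribosomal RNA rows, and the older edgeR method. The 42 other pathway genes and 41 markers in 7 cell type lists were looked up by symbol; 1 pathway gene is not analysed here. The result of 1 further pathway gene is not reported here. Exon lengths, over the merged exons of all transcripts of a gene, and overlaps came from GENCODE M21. The tools were edgeR 4.0.16, DESeq2 1.42.0 and limma 3.58.1 in R 4.3.3.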

Additional observations from a re-analysis of the deposited data

Results flagged for a closer look

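Each member was checked in each group of 4 libraries for a highest or lowest library that stood far from the other 3. Of 108 combinations of member and group, 6 were marked; chance marks about 1 in 20 groups. In hCYP2B6-Tg male 4, Mvk was low at 23.4 CPM, with the other 3 males at 33.6 to 35.3 CPM, and Idi1 was low at 68.1 CPM, with the others at 109.1 to 116 CPM. In Cyp2b-null female 5, Sqle was high at 119 CPM against 77 to 84.0 CPM in the other 3 females, and Ggps1 was low at 8.73 CPM against 12.6 to 13.1 CPM. Npc1 was high in Cyp2b-null female 3, at 186 CPM against 124 to 131 CPM, and Npc2 was low in hCYP2B6-Tg female 5, at 68.4 CPM against 82.0 to 84.0 CPM. No member differed in its genotype effect between the sexes by the test of that difference.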

How the results depend on the processing

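Over 51 results and 27 alternatives (11 settings and 16 libraries left out in turn), no result that passed its test changed sign. In the sex comparison within hCYP2B6-Tg, the count of members called, 9, was 4 with no filter, 17 with DESeq2 and 14 with limma voom, and 4 to 11 when a library was left out. Within Cyp2b-null, the count of 1 was 3 with DESeq2, 2 without the 3 libraries set apart, and 1 to 4 when a library was left out; the cause of these changes was not tested. The counts of 0 members in both genotype comparisons and their difference were the same in all settings, and the medians moved by less than 0.194, the spread of the members' median between libraries. The female genotype median of -0.08 was -0.20 to -0.06 over the settings and -0.14 to 0.01 when a library was left out.

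Replicate numbers in the titles did not pair libraries: same-numbered libraries of one sex had correlations of -0.06 to 0.07 in their deviations, 0 of 6 over 0.1, and over all 18 same-numbered pairs 2 were over 0.1. With the number as a replicate block in the fit of 16 libraries, 5 members were called in the sex comparison within hCYP2B6-Tg, without Fdps, Nsdhl, Idi1, Pmvk and Lss, and 2 within Cyp2b-null. Over all genes, the 15 called for genotype in males were 5 to 47 over the settings and 2 to 8 when a library was left out, the 6 of the difference were 0 to 16 and 0 to 12, and the 0 in females were 0 to 12 and 0 to 1. Of all genes, the 1381 called for sex within hCYP2B6-Tg were 1209 to 1553 over the settings and 981 to 1282 when a library was left out. The 1013 called for sex within Cyp2b-null were 757 to 1157 and 749 to 939. Other scalings moved the median of all genes by less than 0.1 on the log2 scale. With 4 libraries a group, the median standard error of a member's log2 fold change was 0.18 in each comparison of 2 groups and 0.25 for the difference between the sexes.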
